A study of Rattus norvegicus with 29 samples.

Results

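The perineuronal net genes described here are Bcan, Ncan, Acan and Vcan, which encode the lecticans brevican, neurocan, aggrecan and versican, together with Hapln1, Tnr and Ptprz1. They were chosen by name: every probe set that the array annotation assigns to 1 of these 7 rat symbols was taken. The 7 genes, of 10411 that have a probe set with 1 symbol, are read by 14 of the 15866 probe sets. RNA from the basolateral amygdala of rats had been hybridised to 29 arrays, 1 per sample. The labels give 9 baseline control arrays, with no time and no treatment named, and 5 arrays each taken 6 h after pain, after isoflurane, an inhaled anaesthetic, after conditioning, and after conditioning in the presence of isoflurane. Fear conditioning teaches an animal to fear a signal paired with a painful event, and the labels call pain a component of it and isoflurane an amnestic agent. Strain, sex, age, dose and the training protocol are not given in the sources used here. Values are log2 of the quantile-normalised array signal, on which a difference of 1 is a doubling, and errors of group means are SDs over arrays.

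Perineuronal nets are lattices of extracellular matrix around the cell bodies and proximal dendrites of certain neurons, most of all parvalbumin-containing inhibitory interneurons. Long chains of hyaluronan form the backbone, lecticans bind to it through their N-terminal domain, link proteins such as Hapln1 lock that contact, and tenascin-R, encoded by Tnr, ties the other ends of the lecticans together. Lecticans are proteoglycans, core proteins that carry chondroitin sulfate chains, as is phosphacan, a secreted form of the receptor phosphatase Ptprz1. Hapln1 and Tnr are net glycoproteins rather than proteoglycans. In the amygdala, digestion of chondroitin sulfate chains is known to make fear memories open to erasure.

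In the current RefSeq annotation each lectican gene lies beside a link protein gene, with 0 protein-coding genes between them: Bcan beside Hapln2, Ncan beside Hapln4, Acan beside Hapln3 and Vcan beside Hapln1. RefSeq promoter sequences of build GRCr8 were held for 6 of the 7 genes, as 7 stretches of the 250 bases before a transcription start. Among them, 2 are printed: that of Hapln1 because its signal varied most closely with an astrocyte marker level, and that of Ncan because it had the lowest adjusted p among the lecticans for conditioning against baseline. Both lie on the plus strand, at chr2:22366717-22366966 and chr16:19335657-19335906, and capitals mark ACAAAG or TATAAA on either strand.
Hapln1: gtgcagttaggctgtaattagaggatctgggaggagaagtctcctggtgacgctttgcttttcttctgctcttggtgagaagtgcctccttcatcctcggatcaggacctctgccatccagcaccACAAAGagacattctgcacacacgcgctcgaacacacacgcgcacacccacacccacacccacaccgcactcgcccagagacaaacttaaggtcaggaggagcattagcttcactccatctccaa
Ncan: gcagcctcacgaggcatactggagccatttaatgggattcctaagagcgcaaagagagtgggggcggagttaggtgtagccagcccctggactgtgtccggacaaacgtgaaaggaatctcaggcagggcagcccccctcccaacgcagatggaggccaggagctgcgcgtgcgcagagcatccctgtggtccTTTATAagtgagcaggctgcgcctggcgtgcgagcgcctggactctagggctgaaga
The letters ACAAAG, a core bound by SOX family factors, were found in 1 of the 7 member stretches, that of Hapln1, and in 16.3% of all 33469 promoter stretches of this length. TATAAA, the core of the TATA box, was found in that of Ncan and in 12.9% of all stretches. TGACGTCA, the cyclic AMP response element, and TGTTCT, a glucocorticoid response half-site, were found in 0 of the 7, and in 1.59% and 17.5% of all. The 4 motifs were searched on both strands and do not overlap one another in the printed stretches.

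Tests were run on probe sets whose mean log2 signal reached the 40th percentile, 7.26. Of the 14 member probe sets 6 did, covering 4 genes: Bcan with 2 probe sets, Hapln1, Tnr and Ptprz1 with 2 probe sets. The 8 that did not were the 1 of Ncan, both of Acan and all 5 of Vcan. The nearest to the limit were an Acan probe set just outside, with a mean of 7.25, and Tnr just inside, with 7.50. Probe sets below the limit were followed in the same model without the filter, and dim signals of this kind are less precise.

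The tissue label was checked against markers. The excitatory neuron genes Slc17a7 and Camk2a had mean log2 signals of up to 11.71 and 10.92, and the inhibitory neuron genes Gad1 and Pvalb reached 11.93 and 8.09. Tbr1, at 6.64, and the precursor gene Cspg4, at 5.98, were below the filter, and 4 other markers of excitatory neurons (Neurod6, Rspo2, Satb1 and Etv1) were not in the annotation used. Genes typical of the neighbouring striatum were also read, with means of 12.10 for Penk, 9.96 for Ppp1r1b, 9.71 for the brighter probe set of Pde10a and 8.76 for that of Drd1, and so was Calb2, listed for thalamus and hypothalamus, at 11.11. The arrays correlated pairwise between 0.885 and 0.977, and 0 pairs held identical values. The labels name a labelling kit for the baseline and isoflurane arrays and none for the other 3 groups. A kit effect therefore cannot be told apart from the differences of those 3 groups from baseline, or of conditioning under isoflurane from isoflurane. All comparisons with baseline share the same 9 arrays.

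No member changed in any comparison after adjustment over the 9520 probe sets tested (limma with Benjamini-Hochberg adjustment, 0 of 6 member probe sets in each). The background was as sparse: with adjusted p under 0.05, 0.0105% of all probe sets, 1 in number, were called for isoflurane minus baseline, and 0% in each of the other 6 two-group comparisons, in the interaction and in the F test over the 5 groups. The lowest adjusted p over all probe sets was 0.0179 for isoflurane, 0.0704 for pain and 0.415 for conditioning against baseline. In the interaction, which asks whether the effect of conditioning differs with isoflurane, it was 0.572. All member values that follow are therefore differences that did not pass the test, given with their errors.

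At an unadjusted p under 0.05, 2 of the 6 member probe sets passed for pain (Bcan and Hapln1), against 8.96% of all probe sets tested. For isoflurane 1 did (Ptprz1), against 5.38%, for conditioning 2 did (both of Ptprz1), against 10.1%, and for conditioning under isoflurane 0 did, against 6.5%. In conditioning minus pain the count was 0, against 9.04%, and in conditioning under isoflurane minus isoflurane it was 0, against 4%. Conditioning under isoflurane minus conditioning gave 0, against 3.69%, and the interaction gave 1 (Ptprz1), against 4.79%. In the F test 0 members passed, against 7.35%, with Ptprz1 nearest (adjusted p = 0.674, limma). By direction, 6 of 6 probe sets were higher than baseline after pain, 5 after isoflurane, 6 after conditioning and 5 after conditioning under isoflurane, with median differences of 0.14, 0.11, 0.20 and 0.11. The median over all probe sets tested was within 0.0037 of 0 in each of these comparisons. After pain the direction count depended on the scaling: with arrays centred on their medians, which moved the median of all probe sets by -0.11, 4 of 6 were higher and the member median was 0.02. 

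**Figure D1:**
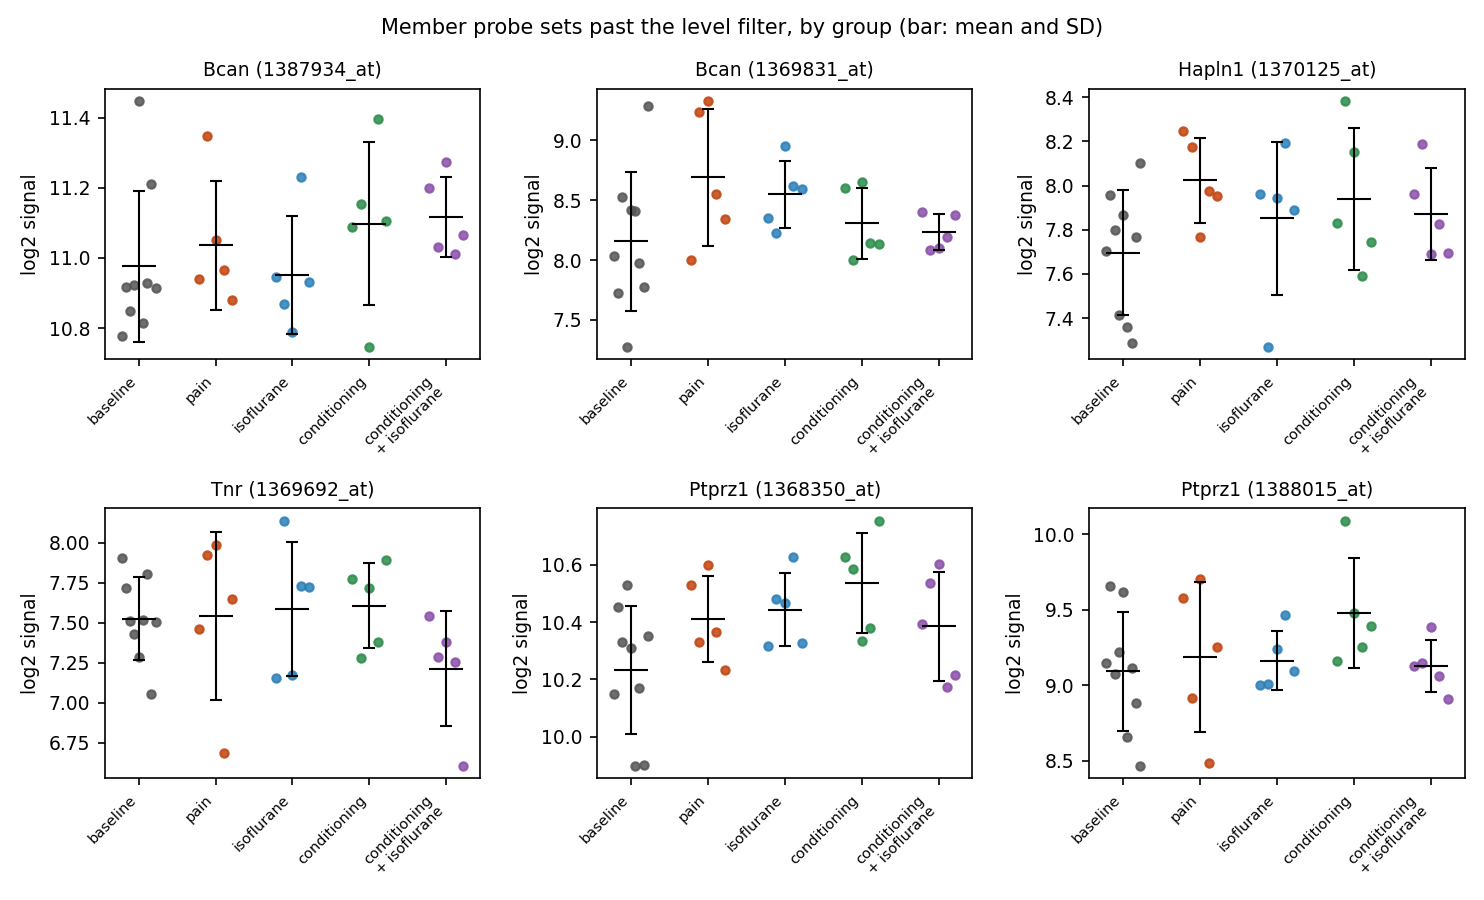
Log2 signal of the 6 member probe sets that passed the level filter, 1 panel each, with a point per array, and the mean and SD of each group (9 baseline arrays and 5 of each other group). The groups overlap in every panel, and the conditioning arrays of Ptprz1 (1368350_at) lie between 10.34 and 10.75 against 9.90 to 10.53 at baseline.

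Brevican is a lectican of the central nervous system, made by astrocytes and neurons. On the Bcan probe set 1387934_at the baseline arrays ran from 10.78 to 11.45 with a median of 10.92. The pain arrays read 10.94, 11.35, 11.05, 10.97 and 10.88, the isoflurane arrays 10.94, 10.87, 10.79, 11.23 and 10.93, the conditioning arrays 11.09, 11.15, 10.75, 11.40 and 11.11, and those conditioned under isoflurane 11.20, 11.03, 11.27, 11.01 and 11.07. Every group overlapped every other. The residual SD was 0.192, under the median of 0.227 for all probe sets tested, and the 95% intervals of its 4 differences from baseline lay between -0.24 and 0.35.

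The second Bcan probe set, 1369831_at, was dimmer and far more variable, with a residual SD of 0.446. Its baseline arrays spanned 7.27 to 9.28 with a median of 8.03, and the pain arrays read 8.00, 9.23, 9.32, 8.55 and 8.34. Pain minus baseline was 0.53 (SE 0.23, 95% interval 0.06 to 1.00, adjusted p = 0.517, limma). The pain arrays lay inside the baseline range except for 1, at 9.32. Leaving out 1 array at a time gave 0.38 to 0.71, lowest without pain replicate 3. In conditioning the same probe set differed from baseline by 0.15 (SE 0.23). The brighter Bcan probe set, at 0.06 (SE 0.10) for pain, did not show the difference of the dimmer one. Within groups the 2 probe sets hardly varied together (r = 0.04 over 29 arrays).

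Neurocan, the lectican most abundant in the developing brain, is read by 1 probe set, 1387541_at, which lay below the filter with a mean of 6.47. Baseline arrays ranged from 5.85 to 6.79 with a median of 6.33. The conditioning arrays read 6.38, 7.14, 7.06, 7.31 and 6.87, so that 4 of 5 lay above all 9 baseline arrays. The pain arrays read 6.72, 6.81, 6.14, 6.74 and 6.76, the isoflurane arrays 6.27, 5.95, 6.05, 6.58 and 6.87, and the arrays conditioned under isoflurane 5.94, 6.95, 6.53, 6.49 and 5.34. Without the filter, conditioning minus baseline was 0.65 (SE 0.22, 95% interval 0.19 to 1.11, adjusted p = 0.513, limma). Conditioning under isoflurane minus conditioning was -0.70 (SE 0.25, 95% interval -1.23 to -0.18, adjusted p = 1, limma), and the interaction was -0.75 (SE 0.34, adjusted p = 0.959, limma). The F test over the 5 groups gave an adjusted p = 0.689 (limma). The group mean of Ncan was thus highest after conditioning (6.95 ± 0.36) and lowest after conditioning under isoflurane (6.25 ± 0.62), and the arrays of these groups overlapped.

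Aggrecan is the lectican most typical of the nets around parvalbumin neurons. Its brighter probe set, 1387355_at, ranged at baseline from 6.75 to 7.67 with a median of 7.12. The conditioning arrays read 7.55, 7.36, 7.12, 7.26 and 7.69 and those conditioned under isoflurane 7.29, 6.71, 7.27, 6.81 and 7.43. Pain arrays lay between 7.04 and 7.63 and isoflurane arrays between 6.94 and 7.70, and all groups overlapped. Its interaction was -0.50 (SE 0.25, adjusted p = 0.959, limma without the filter). The second probe set, 1368836_a_at, spread from 5.00 to 7.50 over the 29 arrays, with a residual SD of 0.780.

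Versican, made in adult brain largely by cells of the oligodendrocyte lineage, has 5 probe sets, all below the filter. The brightest, 1388142_at, ranged at baseline from 5.20 to 7.08 with a median of 6.90, and the conditioning arrays read 6.95, 7.45, 7.18, 7.10 and 7.44. The pain arrays lay between 6.77 and 7.15, the isoflurane arrays between 6.60 and 7.36 and those conditioned under isoflurane between 6.33 and 7.20. Conditioning minus baseline was 0.59 (SE 0.23, 95% interval 0.11 to 1.07, adjusted p = 0.541, limma without the filter). The 2 lowest baseline arrays, replicates 8 and 9 at 5.20 and 6.11, weigh on that value. The other Vcan probe sets did not read alike: after pain 4 of the 5 were higher than baseline while 1371232_a_at was lower (-1.05, SE 0.48, adjusted p = 0.556, limma without the filter). With a floor of 64 that difference was -0.34. The dimmest, 1371233_at, was at the floor of the scale on 22 of the 29 arrays.

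**Figure D2:**
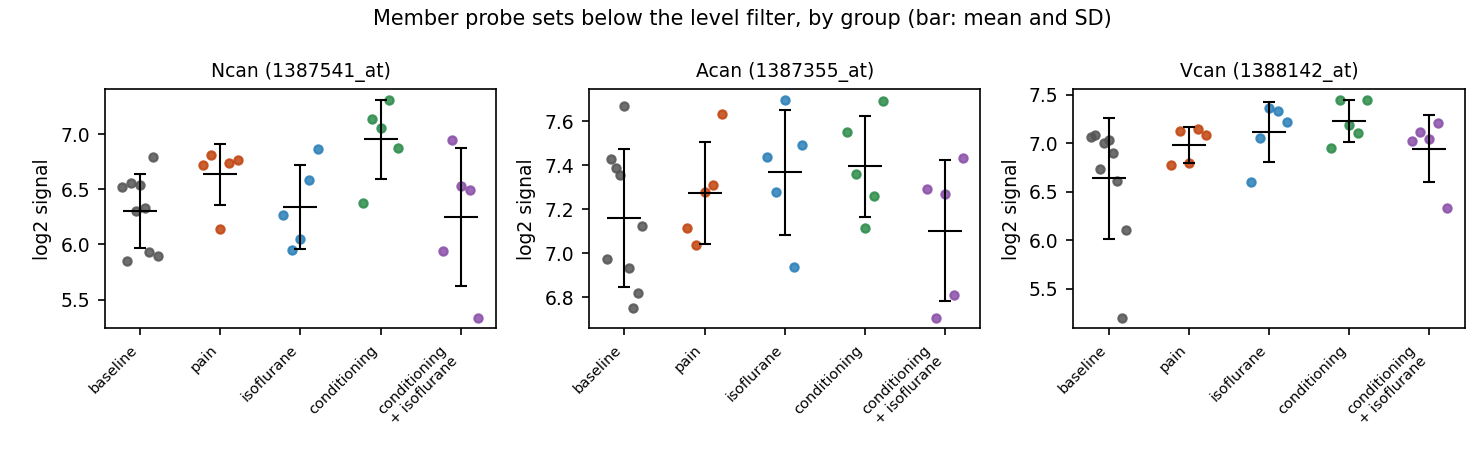
Log2 signal of the brightest probe set of Ncan, Acan and Vcan, all below the level filter, with a point per array, and the mean and SD of each group. Ncan conditioning arrays average 6.95 against 6.30 at baseline, and 1 baseline array of Vcan lies at 5.20, far under the rest.

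With all 14 member probe sets and no filter, 0 passed adjustment. At an unadjusted p under 0.05, 3 passed for pain, against 8.42% of the 15866 probe sets, 3 for conditioning, against 8.4%, and 1 for conditioning minus pain, against 8.45%. Among those for pain, Vcan 1371232_a_at was lower than baseline. Isoflurane gave 1, against 873 of the 15866, and conditioning under isoflurane 0, against 981. Conditioning under isoflurane minus isoflurane gave 0, against 689. Conditioning under isoflurane minus conditioning gave 1, against 4.15%, the interaction 3, against 4.96%, and the F test 1, against 7.25%. Of the 14, 12 were higher than baseline after pain, 9 after isoflurane, 12 after conditioning and 9 after conditioning under isoflurane, and 4 had an interaction above 0. The shares over the 9520 probe sets past the filter were 49.2%, 51.0%, 49.9%, 51.1% and 50.8% in the same order.

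Hapln1 stabilises the bond between lecticans and hyaluronan and is needed for compact nets. Its probe set, 1370125_at, ranged at baseline from 7.29 to 8.10 with a median of 7.77. The pain arrays read 8.25, 8.18, 7.76, 7.98 and 7.95, the isoflurane arrays 7.96, 7.27, 7.94, 8.19 and 7.89, the conditioning arrays 7.83, 8.38, 8.15, 7.59 and 7.74, and those conditioned under isoflurane 7.96, 8.19, 7.69, 7.83 and 7.70. Pain minus baseline was 0.33 (SE 0.15, 95% interval 0.01 to 0.64, adjusted p = 0.534, limma), with 2 of 5 pain arrays above all baseline arrays. Astrocyte markers averaged higher after pain too, at 10.90 ± 0.10 (10.80 to 11.05) against 10.78 ± 0.14 (10.60 to 10.93) at baseline. Of 21 probe sets 17 were higher, against 49.2% of all probe sets tested, and 5 had an unadjusted p under 0.05, against 8.96%. Centring arrays on their medians moved the median of all probe sets by -0.11 for pain. The astrocyte difference was not followed in that scaling. The part of the astrocyte level in the Hapln1 difference was not tested. Conditioning minus baseline was 0.24 (SE 0.15, 95% interval -0.07 to 0.56). After isoflurane and after conditioning under isoflurane the differences were 0.16 and 0.18 (SE 0.15 each), and the groups overlapped.

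Tenascin-R is made mainly by oligodendrocytes and by some interneurons. The Tnr probe set, 1369692_at, ranged at baseline from 7.05 to 7.90 with a median of 7.51. The arrays conditioned under isoflurane read 7.54, 7.29, 7.38, 7.26 and 6.60, and those of conditioning without it 7.77, 7.28, 7.72, 7.38 and 7.89. Pain arrays lay between 6.68 and 7.98 and isoflurane arrays between 7.16 and 8.14. Conditioning under isoflurane was the only group whose mean, 7.21 ± 0.36, lay below that of baseline, 7.53 ± 0.26. That difference was -0.31 (SE 0.20, 95% interval -0.71 to 0.09) and the difference from conditioning was -0.39 (SE 0.22, 95% interval -0.85 to 0.06, adjusted p = 0.999, limma).

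Ptprz1 encodes a receptor phosphatase of astrocytes and oligodendrocyte precursors, and phosphacan is the secreted form of its outer part. The probe set 1368350_at ranged at baseline from 9.90 to 10.53 with a median of 10.31. The deposited signals of the baseline arrays ran from 973.2 to 1492.1. The pain arrays read 10.53, 10.33, 10.60, 10.36 and 10.23, the isoflurane arrays 10.32, 10.48, 10.47, 10.63 and 10.33, the conditioning arrays 10.63, 10.59, 10.34, 10.38 and 10.75, and those conditioned under isoflurane 10.39, 10.54, 10.60, 10.17 and 10.22. In conditioning 3 of 5 arrays lay above all baseline arrays. The group means in rising order were 10.23 ± 0.22 at baseline (n = 9), 10.38 ± 0.19 after conditioning under isoflurane, 10.41 ± 0.15 after pain, 10.44 ± 0.13 after isoflurane and 10.54 ± 0.18 after conditioning (n = 5 each), and neighbours in this order differed by less than their spread.

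Conditioning minus baseline for this probe set was 0.30 (SE 0.10, 95% interval 0.09 to 0.51, adjusted p = 0.415, limma). Isoflurane minus baseline was 0.21 (SE 0.10, adjusted p = 0.927, limma), and pain minus baseline was 0.18 (SE 0.10). The interaction of conditioning and isoflurane was -0.36 (SE 0.16, 95% interval -0.68 to -0.05, adjusted p = 0.959, limma). The direct difference of conditioning under isoflurane from conditioning was smaller, -0.15 (SE 0.12, 95% interval -0.39 to 0.09).

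The second Ptprz1 probe set, 1388015_at, ranged at baseline from 8.46 to 9.66 with a median of 9.12, and the conditioning arrays read 9.16, 10.09, 9.48, 9.26 and 9.39. Those conditioned under isoflurane read 9.13, 9.15, 9.39, 9.06 and 8.91, the pain arrays lay between 8.49 and 9.70 and the isoflurane arrays between 9.00 and 9.47. Conditioning minus baseline was 0.38 (SE 0.18, 95% interval 0.01 to 0.76, adjusted p = 0.488, limma) and the interaction was -0.42 (SE 0.28). Without conditioning replicate 2, at 10.09, the first of these values was 0.23. Both probe sets had their highest group mean after conditioning. Averaged into 1 value per gene, Ptprz1 differed by 0.34 (SE 0.13, adjusted p = 0.398 over 7049 genes, limma).

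The Ptprz1, Acan and Vcan differences from baseline rested on part of the baseline arrays. Baseline replicates 6 to 9 were lower than replicates 1 to 5 on Ptprz1 1368350_at (10.08 against 10.35), on Ptprz1 1388015_at (8.78 against 9.34) and on Vcan 1388142_at (6.21 against 6.98). Against replicates 1 to 5 alone, conditioning differed by 0.18, 0.13 and 0.24 on these 3 probe sets, and none passed (adjusted p = 0.761 for the first, limma). Against replicates 6 to 9 alone it differed by 0.46, 0.70 and 1.02, and the first of these passed adjustment (adjusted p = 0.0499, limma). With that baseline 112 of all probe sets tested were called for conditioning, against 0 with the whole baseline. On Acan 1387355_at the baseline means were 6.91 and 7.36. Conditioning differed there by 0.23 with the whole baseline, 0.03 against replicates 1 to 5 and 0.49 against replicates 6 to 9, and the interaction was -0.30 and -0.75 with the 2 sets. On Bcan 1369831_at replicates 6 to 9 were the higher set (8.36 against 7.99). Pain differed there by 0.70 against replicates 1 to 5 and by 0.33 against replicates 6 to 9. The labels do not say what separates the 2 sets of baseline arrays. The Ncan difference was similar with either, 0.60 and 0.72.

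**Figure D3:**
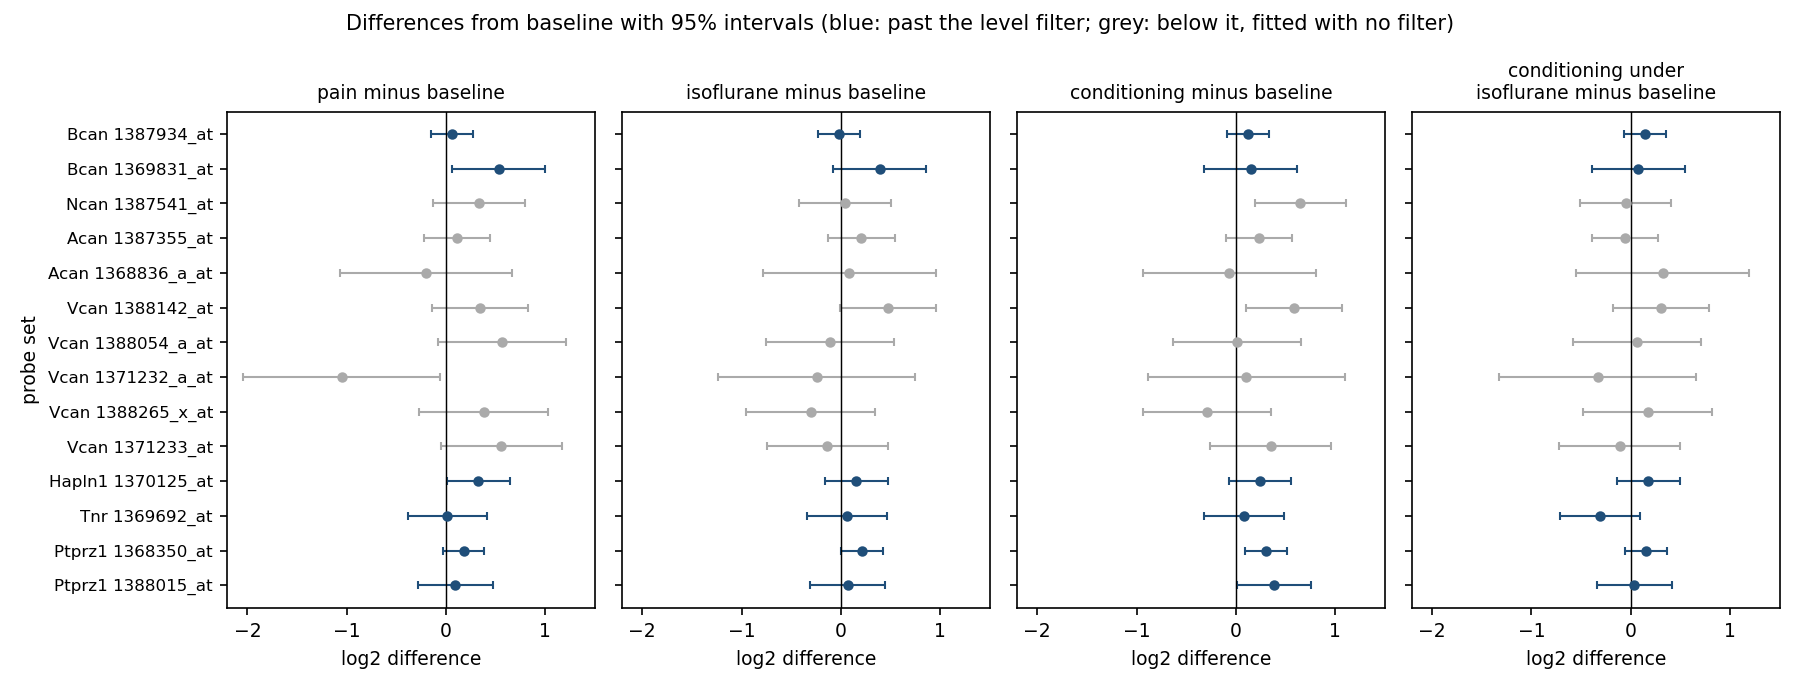
Log2 differences of the 14 member probe sets from baseline in each of 4 groups, 1 panel each, with their 95% intervals from limma, in blue for probe sets that passed the filter and in grey for those followed without it. Intervals of the 6 tested probe sets that exclude 0 are those of Bcan 1369831_at and Hapln1 for pain, Ptprz1 1368350_at for isoflurane and both Ptprz1 probe sets for conditioning, none of them called after adjustment.

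The genes that build, bind and cleave nets were followed in 5 lists of 106 genes, of which 75 were on the array and 52 were tested on 72 probe sets. In each comparison 0 of the 72 were called after adjustment. At an unadjusted p under 0.05, 8 passed for conditioning, which is 11.1% against the 10.1% of all probe sets, 5 passed for pain, 6.94% against 8.96%, 6 for isoflurane, 8.33% against 5.38%, and 6 for conditioning under isoflurane, 8.33% against 6.5%. The genes named next are among the 2 with the lowest unadjusted p of their list in at least 1 comparison, and none was called.

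Other link proteins and genes of hyaluronan synthesis or binding gave 4 probe sets of 3 genes (Hapln2, Has2 and Hmmr). Of these probe sets 2 were higher after conditioning. Hapln2, the link protein of nodes of Ranvier and the neighbour of Bcan, differed by 0.44 (SE 0.19, adjusted p = 0.463, limma) on 1 of its 2 probe sets and by 0.02 (SE 0.18) on the other. Of 13 probe sets of other matrix glycoproteins 7 were higher after conditioning, with a median difference of 0.11. Sparc, a matricellular protein secreted by glia and vessels, differed by 0.63 (SE 0.19, adjusted p = 0.415, limma) on 1 probe set and by 0.42 (SE 0.20) on the other. Agrn, the heparan sulfate proteoglycan agrin, differed by 0.40 (SE 0.13, adjusted p = 0.611, limma) after conditioning under isoflurane, and Sdc3, syndecan-3, by 0.44 (SE 0.16, adjusted p = 0.457, limma) after pain on 1 probe set but by -0.21 (SE 0.18) on the other.

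Ligands and receptors of net components gave 27 probe sets, of which 18 were higher after conditioning, with a median of 0.06. Ptn encodes pleiotrophin, a secreted ligand of Ptprz1, and differed by 0.35 (SE 0.16, adjusted p = 0.488, limma) after conditioning. Cntn1, contactin-1, an adhesion molecule that binds both Ptprz1 and tenascin-R, was lower than baseline after pain (-0.45), isoflurane (-0.54) and conditioning (-0.51, SE 0.20 each). After conditioning under isoflurane it was also lower, by less, and the interaction was 0.79 (SE 0.31, adjusted p = 0.959, limma). The sign for Cntn1 in conditioning was thus opposite to that of its partner Ptprz1. Ptprs, a receptor for chondroitin sulfate, differed by -0.56 after isoflurane on 1 of its 3 probe sets (SE 0.21, adjusted p = 0.922, limma), and by -0.22 and 6e-04 on the others.

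Enzymes of chondroitin sulfate synthesis gave 9 probe sets, of which 5 were higher after conditioning, with a median of 0.02. The lowest p among them was for Papss2, which makes the sulfate donor (0.37, SE 0.20, adjusted p = 0.535, limma). Proteases and their inhibitors gave 19 probe sets, 11 of them higher after conditioning, with a median of 0.05. Plat, tissue plasminogen activator, differed by 0.72 after isoflurane (SE 0.21, adjusted p = 0.724, limma), by 0.67 after conditioning and by 0.53 after conditioning under isoflurane. After pain it differed by 0.37 (SE 0.21), and its interaction was -0.86 (SE 0.32, adjusted p = 0.959, limma). Timp3, an inhibitor of the metalloproteases that cleave lecticans, differed by 0.48 after conditioning on 1 probe set (SE 0.16, adjusted p = 0.415, limma) and by 0.05 (SE 0.10) on the other. None of the 6 listed Adamts genes, which include the main lectican-cleaving enzymes, was tested.

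Because nets are made by several cell types, marker levels were set beside the members as the mean log2 signal of each list. Astrocyte markers averaged 10.78 ± 0.14 at baseline (range 10.60 to 10.93) and 10.96 ± 0.21 after conditioning (10.80 to 11.33), and 20 of 21 probe sets were higher. Markers of mature oligodendrocytes averaged 10.64 ± 0.24 (10.30 to 10.98) and 10.94 ± 0.25 (10.57 to 11.27), with 13 of 13 higher. Those of oligodendrocyte precursors, 4 probe sets in all (Sox10, Cspg5, Pdgfra and Olig1), averaged 9.73 ± 0.14 (9.50 to 9.92) and 9.95 ± 0.15 (9.76 to 10.15), with 4 of 4 higher. Whether this list separates precursors from mature oligodendrocytes was not tested. The list for parvalbumin interneurons averaged 9.35 ± 0.27 and 9.19 ± 0.21, with 4 of 10 probe sets higher. Besides Pvalb it holds genes of inhibitory neurons at large, such as Gad1, and Tac1, which is also in the striatum list. Its genes Erbb4, Lhx6, Syt2 and Kcns3 were not tested. In none of these lists was a probe set called for conditioning after adjustment (limma), while 7 of 21 astrocyte and 7 of 13 mature oligodendrocyte probe sets had an unadjusted p under 0.05, against 10.1% of all probe sets tested. Of all probe sets 49.9% were higher. The marker levels after conditioning under isoflurane were 10.87 ± 0.12 for astrocytes and 10.68 ± 0.19 for mature oligodendrocytes. After isoflurane alone they were 10.77 ± 0.19 and 10.70 ± 0.22, and after pain 10.90 ± 0.10 and 10.72 ± 0.24. The level of striatum markers was 9.06 ± 0.44 at baseline, with the highest array at 10.03. It was 8.68 ± 0.32 after conditioning, with the highest at 9.21, and 8.99 ± 0.17 after conditioning under isoflurane. Of their 9 probe sets 0 were higher after conditioning than at baseline, with a median difference of -0.39, 4 at an unadjusted p under 0.05 and 0 called (limma), and 9 of 9 had an interaction above 0, with a median of 0.43. They averaged 8.89 ± 0.35 after pain and 8.87 ± 0.20 after isoflurane. The part of these marker levels in the Ptprz1, Ncan and Vcan differences was not tested. In whole tissue, more cells of a type and more RNA per cell cannot be told apart.

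Apart from the groups, members were compared array by array as deviations from their group mean. Of 15 pairs of the 6 tested probe sets 0 passed adjustment. The closest pair was that of the 2 Ptprz1 probe sets, with Pearson r = 0.46 and Spearman rho = 0.49 over 29 arrays (permutation p = 0.0216 and 0.0131, adjusted over 15 pairs 0.324 and 0.197). Without the 2 arrays farthest from the median r was 0.39. It was 0.32 with the 2 sets of baseline arrays as groups of their own and 0.13 with arrays centred on their medians.

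Each tested member was also set against 5 marker levels, 30 relations in all, of which 1 passed adjustment in both measures. Hapln1 varied with the astrocyte level at r = 0.80 and rho = 0.76 over 29 arrays (permutation p = 1e-05, the smallest that 100000 permutations can give, and p = 3e-05, adjusted over 30 relations 3e-04 and 9e-04). Without the 2 arrays farthest from the median r was 0.73, without any 1 array it ranged from 0.75 to 0.83, and with baseline replicates 1 to 5 and 6 to 9 as groups of their own it was 0.80. It was 0.78 on the deposited scaling and 0.66 with arrays centred on their medians, and it passed adjustment in both. The relation differed between astrocyte probe sets. The highest r with Hapln1 were 0.85 for 1 probe set of the glutamate transporter Slc1a3, 0.82 for 1 of glutamine synthetase Glul and 0.81 for 1 of connexin-43 Gja1. Other tested probe sets of these genes gave 0.09 and 0.29 (Slc1a3), 0.22 and 0.68 (Glul) and 0.28 (Gja1). The probe set of Gfap gave 0.36. Hapln1 against the parvalbumin interneuron list, which is not limited to genes of parvalbumin cells, gave r = 0.20 (permutation p = 0.317, adjusted p = 0.528). Whether the 2 coefficients differ was not tested.

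**Figure D4:**
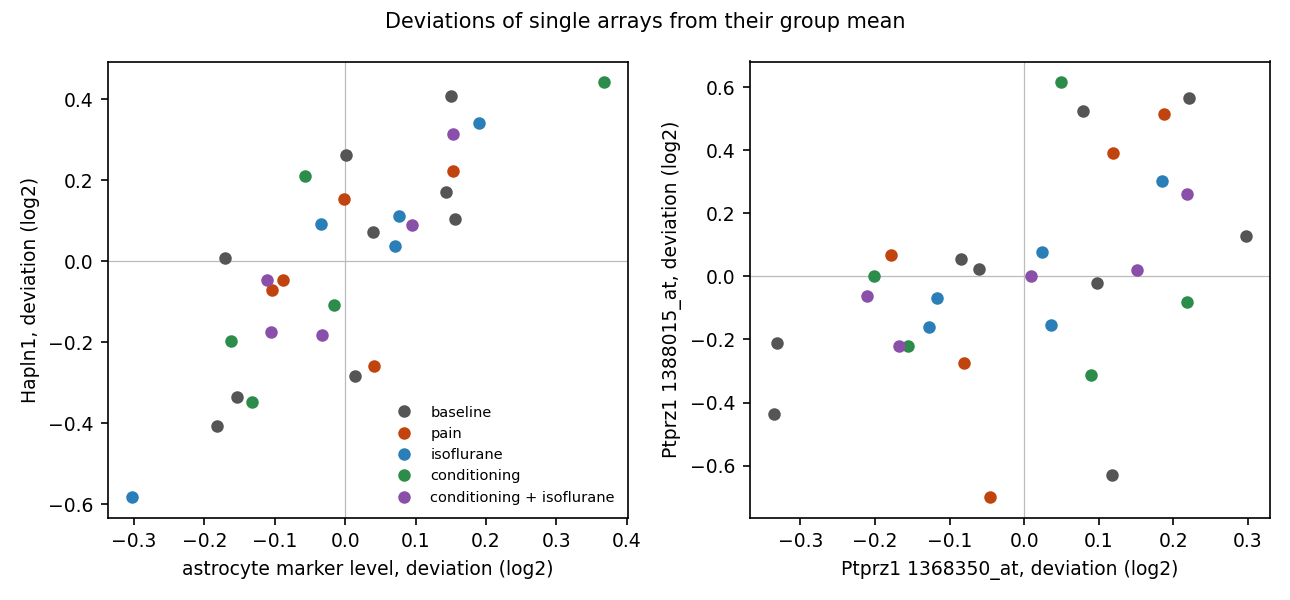
Deviations of each array from its group mean on the log2 scale, for Hapln1 against the astrocyte marker level and for the 2 Ptprz1 probe sets against each other, with points coloured by group. Hapln1 follows the astrocyte level at r = 0.80, which passed adjustment, and the Ptprz1 probe sets have r = 0.46, which did not and was 0.13 with arrays centred on their medians.

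Bcan 1387934_at had its highest coefficients with markers of oligodendrocyte precursors (r = 0.52, permutation p = 0.00902, adjusted p = 0.135) and of mature oligodendrocytes (r = 0.46, permutation p = 0.0269, adjusted p = 0.248), and neither passed. With arrays centred on their medians the first was 0.69 and passed (adjusted p = 0.0075, permutation test). The other Bcan probe set, 1369831_at, did not share this. It gave -0.06 with precursor markers, also with centred arrays, and 0.23 with mature oligodendrocyte markers. The 2 Ptprz1 probe sets gave r = 0.35 and 0.41 with the astrocyte level (adjusted p = 0.267 and 0.248, permutation test), and 0.20 and 0.05 with arrays centred on their medians. With mature oligodendrocyte markers they gave 0.36 and 0.42 (adjusted p = 0.267 and 0.248, permutation test), and 0.18 and 0.17 with centred arrays. With excitatory neuron markers 1368350_at gave -0.09 and 1388015_at -0.46 (adjusted p = 0.248, permutation test). The latter was -0.60 with centred arrays (adjusted p = 0.0564, permutation test). For Tnr the values were -0.22 for astrocytes, -0.32 for oligodendrocyte precursors, -0.27 for excitatory neurons and 0.16 for mature oligodendrocytes, none of which passed. With arrays centred on their medians the first was -0.52, with rho = -0.56, and passed for rho (adjusted p = 0.0361, permutation test) but not for r (adjusted p = 0.0564, permutation test).

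The genes most like each member were taken as the 3 with the highest r of within-group deviations over the 29 arrays, which is a description and has no test. For Hapln1 these were Slc1a3 (r = 0.85), the GABA-A receptor subunit gene Gabrg1 (0.82) and Glul (0.82). For Ptprz1 1368350_at they were the astrocyte water channel Aqp4 (0.83), the transcription factor Tead1 (0.77) and Selenop, a selenium carrier (0.75). For Bcan 1387934_at they were Ak4, Fgfr1 and Sc5d, at 0.71, 0.69 and 0.66. For Tnr they were Dlgap5, Fev and Gapdhs, at 0.70, 0.69 and 0.64.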

How the data were processed

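The values are the linear signal intensity that the authors deposited for each probe set of 29 one-colour arrays, scaled by them to a common 2% trimmed mean (500.08 to 500.12). Software and genome build are not given in the sources used here. Array medians ran from 210.7 to 292.2, so signals were quantile normalised, values under 16 were set to 16, and log2 was taken. After 57 control probe sets were left out, 15866 remained, of which 12783 carried 1 symbol, 312 several and 2771 none, and all 14 member probe sets matched the current rat gene table by identifier. Probe sets at or above the 40th percentile of mean log2 signal (9520) were fitted with limma 3.58.1 in R 4.3.3 (lmFit, eBayes with trend) on all arrays, 1 mean per group, with 7 two-group contrasts, the interaction and an F test, and Benjamini-Hochberg adjustment over all 9520 at 0.05. The interaction is conditioning under isoflurane minus isoflurane, less conditioning minus baseline. Correlations used deviations from group means with 100000 permutations within groups (Python 3.11.15 drew the figures). The scripts were tested on simulated data.

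Members and lists were chosen with earlier results of these data known. All member probe sets are described. Of the partner lists, called probe sets, or else some of the 2 with the lowest p per list and comparison, are named. Cspg4, Cspg5 and Dcn stand in both a partner list and a marker list. Tac1 stands in the marker lists of both parvalbumin interneurons and striatum. The alternatives were 2 other scalings, other floors and filters, no trend, the replicate number as a block, each array left out in turn, subsets of the baseline arrays and only the groups compared. Following unfiltered members, marker relations and the Hapln1 checks were added after seeing the data. The labels of the conditioning groups are abbreviations read through the design text. The labels number the rat for 15 arrays, so the arrays are not all stated to be separate animals, and p-values measure the spread between these arrays.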

Additional observations from a re-analysis of the deposited data

Results flagged for a closer look

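In groups of 4 to 10 arrays, an array was singled out where its gap to the nearest other, divided by the range of the group, passed the 95% limit of Dixon's test. Over 70 groups of member values 9 did, all on probe sets below the level filter, where chance gives about 1 in 20. On Ncan 1387541_at, pain replicate 3 was lowest at 6.14. Its deposited signal was 95.4, against 101.3, 111.3, 112 and 120.4 on the other pain arrays, so it stood apart less before quantile normalisation. On Vcan 1388142_at, replicate 5 of conditioning under isoflurane was lowest at 6.33. On Vcan 1388054_a_at the lowest arrays stood apart in 4 groups, at 5.19 for baseline replicate 8, 4.73 for conditioning replicate 1, 5.63 for conditioning under isoflurane replicate 5 and 4.41 for isoflurane replicate 3. On Vcan 1388265_x_at, isoflurane replicate 2 was highest at 5.99. On Vcan 1371233_at, where most arrays were at the floor, baseline replicate 8 was highest at 5.22, and replicate 4 of conditioning under isoflurane was highest at 4.12.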

How the results depend on the processing

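The 112 member differences gave 4244 values under the alternatives. A sign change occurred in 138, and 0 of these had an unadjusted p under 0.05 before or after. After adjustment 1 value passed (limma), which made 1 member called for conditioning minus baseline with baseline replicates 6 to 9 only, against 0 with all arrays: Ptprz1 1368350_at, adjusted p = 0.0499. Relations of members with marker levels that passed on Pearson r numbered 2 with arrays centred on their medians, against 1. Leaving out each array in turn gave 0.25 to 0.35 for Ptprz1 1368350_at in conditioning minus baseline and -0.42 to -0.31 in the interaction, 0.56 to 0.79 for Ncan in conditioning minus baseline and 0.27 to 0.40 for Hapln1 after pain. Same-numbered arrays of different groups did not deviate together (median correlation -0.01 over 50 pairs, range -0.24 to 0.26, over 0.1 in 12), so the numbers were not taken to pair samples. The fit with the replicate number as a block called 0 members in each comparison. It gave 0.18 for Ptprz1 1368350_at and 0.60 for Ncan in conditioning minus baseline, and -0.24 for Ptprz1 1368350_at in the interaction. Numbers 6 to 9 exist at baseline alone, so the block leaves those 4 arrays without weight in these differences. Low signal limits what can be read from Ncan, Acan and Vcan.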
